A study of Homo sapiens with 11 samples.

Results

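The sites described here held peaks of CHD4, HDAC2 and MTA2 and no peak of RBBP4. They came from chromatin immunoprecipitation followed by sequencing (ChIP-seq) in SK-N-MC cells, a human line established from Ewing sarcoma that carries the EWSR1::FLI1 fusion, labelled wildtype and grown without any stated treatment. Overlapping peaks of the 4 NuRD subunits were merged, and 935 of the 28995 merged sites (3.22%) fitted the rule. The members were thus chosen by the presence or absence of called peaks of these 4 proteins, and nothing is tested on those peaks. They made up 22.9% of the 4090 sites with exactly 3 subunits and 16% of the 5852 sites with CHD4, HDAC2 and MTA2, the other 4917 of which also held RBBP4. The series held 11 samples, of which 9 had a peak list, 1 for each NuRD subunit, 1 for FLI1 and 1 for each of the histone marks H3K4me1, H3K4me3, H3K27ac and H3K27me3, and 2 were input. CHD4 was pulled down through a Flag tag, and the sources used here do not say how the tag was introduced. With 1 list per target nothing below has a replicate error, and the read depth behind the lists is unknown. Brackets hold 95% Wilson intervals for shares and 95% Newcombe intervals for differences, which cover counting error over sites only, and sites are not replicates of a condition. H3K4me3 and H3K27ac peaks were both found within 1 kb of an end of 6 of 7 Ewing marker genes (not of CD99). Of 6 genes of other lineages, 0 had H3K4me3 there and 1, PTPRC, had H3K27ac.

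NuRD joins a chromatin remodeller to a histone deacetylase. CHD4 is the ATPase that moves nucleosomes, HDAC2 removes acetyl groups from histone tails, and MTA2 is the scaffold on which the deacetylase and the histone chaperones assemble. RBBP4 is one such chaperone, binds histones, and is also a subunit of Polycomb repressive complex 2, of chromatin assembly factor 1 and of the SIN3 complex. Its close paralogue RBBP7, which NuRD can also contain, was not measured. In Ewing sarcoma the fusion binds GGAA repeats and single ETS motifs and recruits chromatin regulators to enhancers. Of the histone marks, H3K4me3 is typical of promoters and H3K4me1 of enhancers, H3K27ac is found at either when active, and H3K27me3 is laid down by Polycomb.

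At promoters, sequence at or beside these sites could be read from RefSeq windows (GRCh38.p14) that run from 250 bases before to 50 bases after a listed start. An overlap of 1 bp was enough, and 132 members (14.1%) overlapped 178 of 35116 listed windows, belonging to 151 genes. Of these windows, 177 did not also touch a site with all 4 subunits. Shown first are the windows of MAP4K4 (a STE20-family kinase), NMI (a partner of MYC-family and STAT proteins), SAMD1 (a protein that binds unmethylated CpG islands), BCL3 (an atypical IκB protein that works with NF-κB) and LCOR (a nuclear receptor corepressor), which belong to the 5 highest-ranked members at gene ends with H3K4me3. The last is the window of YAP1-DT, a transcript divergent from the Hippo pathway coactivator YAP1, shown because it alone among the 177 held 3 GGAA units in a row. Capitals mark, on either strand, the paired GGAA unit GGAAGGAA (which a run of 3 units also holds), the ETS letters CCGGAAGT, the AP-1 letters TGANTCA, the NFY box CCAAT, the SP and KLF box GGGCGG, the NRF1 palindrome and AGGGGGC, a part of the CTCF motif.
MAP4K4, chr2:101697457-101697756, plus strand: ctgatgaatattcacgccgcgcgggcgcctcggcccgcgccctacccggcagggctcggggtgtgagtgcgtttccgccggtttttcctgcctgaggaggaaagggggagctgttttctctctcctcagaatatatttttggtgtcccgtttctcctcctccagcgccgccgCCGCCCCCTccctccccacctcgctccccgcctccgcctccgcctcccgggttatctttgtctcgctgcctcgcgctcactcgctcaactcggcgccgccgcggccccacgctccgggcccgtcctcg
NMI, chr2:151289619-151289918, minus strand: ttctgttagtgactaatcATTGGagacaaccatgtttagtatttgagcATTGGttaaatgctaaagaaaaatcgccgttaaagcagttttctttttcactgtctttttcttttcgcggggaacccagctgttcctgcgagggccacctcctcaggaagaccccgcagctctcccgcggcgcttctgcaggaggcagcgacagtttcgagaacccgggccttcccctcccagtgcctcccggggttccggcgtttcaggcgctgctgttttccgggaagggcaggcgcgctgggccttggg
SAMD1, chr19:14090702-14091001, minus strand: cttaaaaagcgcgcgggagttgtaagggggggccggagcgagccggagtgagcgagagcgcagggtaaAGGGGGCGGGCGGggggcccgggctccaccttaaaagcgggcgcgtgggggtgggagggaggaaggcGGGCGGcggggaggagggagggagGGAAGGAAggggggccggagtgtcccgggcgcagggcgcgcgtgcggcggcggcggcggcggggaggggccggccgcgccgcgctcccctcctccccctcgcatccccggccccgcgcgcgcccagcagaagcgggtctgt
BCL3, chr19:44748458-44748757, plus strand: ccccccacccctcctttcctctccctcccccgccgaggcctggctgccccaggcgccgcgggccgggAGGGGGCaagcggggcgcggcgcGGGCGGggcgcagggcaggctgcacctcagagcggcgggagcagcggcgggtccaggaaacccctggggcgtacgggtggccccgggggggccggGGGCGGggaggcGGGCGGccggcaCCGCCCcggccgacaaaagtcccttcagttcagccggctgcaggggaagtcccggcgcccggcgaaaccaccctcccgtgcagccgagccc
LCOR, chr10:96832048-96832347, plus strand: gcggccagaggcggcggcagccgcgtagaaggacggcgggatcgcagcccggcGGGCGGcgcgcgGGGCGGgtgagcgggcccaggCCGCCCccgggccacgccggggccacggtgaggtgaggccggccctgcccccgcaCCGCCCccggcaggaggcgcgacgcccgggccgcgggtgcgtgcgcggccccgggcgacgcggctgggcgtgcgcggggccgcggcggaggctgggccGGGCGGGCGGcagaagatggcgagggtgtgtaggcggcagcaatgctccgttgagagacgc
YAP1-DT, chr11:102110408-102110707, minus strand: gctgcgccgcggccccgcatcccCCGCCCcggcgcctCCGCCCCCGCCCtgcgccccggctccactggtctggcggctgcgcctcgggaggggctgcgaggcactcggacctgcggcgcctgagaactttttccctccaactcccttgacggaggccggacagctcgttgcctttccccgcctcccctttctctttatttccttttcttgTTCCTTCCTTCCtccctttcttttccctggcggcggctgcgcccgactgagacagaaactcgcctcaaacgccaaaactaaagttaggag
The windows of MAP4K4, SAMD1 and BCL3 held both GGGCGG and AGGGGGC. That of LCOR held GGGCGG without AGGGGGC, and that of NMI held CCAAT and neither of the others. The GC content was 55.7% at NMI and 82.7% at LCOR, with 19 and 51 CpG dinucleotides. The mean summit of CHD4, HDAC2 and MTA2 lay inside the windows of MAP4K4, NMI and LCOR. It lay outside those of SAMD1, BCL3 and YAP1-DT.

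Across the 177 windows the median GC content was 69% with 30 CpG dinucleotides per window, against 67.7% and 28 in the 1313 windows at sites with all 4 subunits and 58.7% and 14 in all listed windows. The SP and KLF box GGGCGG was present in 76.8% (70.1 to 82.4) of the members' windows, 72.8% (70.3 to 75.1) of those at sites with all 4 and 44.95% of all listed windows. The letters AGGGGGC, which can share bases with GGGCGG, were found in 31.6% (25.2 to 38.8), 23.7% (21.5 to 26.1) and 14.4%, and members exceeded sites with all 4 by 7.95 points (1.13 to 15.5). In windows touching any merged site the median GC content was 67.3% with 28 CpG dinucleotides. GGGCGG stood in 74.5% of those windows and AGGGGGC in 21.4%, so the GC content and GGGCGG of members were near this background. The ETS motif CCGGAAGT stood in 2 of the 177 windows (1.13%, 0.310 to 4.03), in 3.35% of the windows with all 4, in 8.26% of the windows touching any merged site and in 4.14% of all windows. GGAAGGAA was found in 13 (7.34%, 4.34 to 12.2) against 4.27% and 3.67% of all windows, the AP-1 letters TGANTCA in 4 (2.26%) against 5.64% and 7.71%, and the E-box CANNTG in 54.8% against 55.3% and 68.7%. CCAAT was found in 28.8%, against 27.6% at sites with all 4 and 34.6% of all windows, and the NRF1 palindrome in 3.39%, 2.06% and 1.24%. Of the 9 motifs searched, the interval of the difference from sites with all 4 left out 0 for AGGGGGC and for the run of 3 GGAA units, the latter through 1 window against 0 of 1313. Windows of 1 gene or of a divergent pair overlap, so these counts are not independent.

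The members were narrower than sites with all 4 subunits. Their median width was 555 bp (quartiles 443 and 733), against 786 bp (570 and 1136) for sites with all 4, whose width includes the RBBP4 peak. The other sites with exactly 3 subunits had medians of 475.5 bp without HDAC2, 577 bp without MTA2 and 646.5 bp without CHD4. The width was thus not particular to members. A single peak of each subunit made up 866 members (92.6%), and the summits of CHD4, HDAC2 and MTA2 lay within 250 bp of each other in 751 (80.3%, against 75.6% of sites with all 4). The median distance between summits was 60 bp from HDAC2 to MTA2, 71 bp from CHD4 to MTA2 and 80 bp from CHD4 to HDAC2. At sites with all 4 the same distances were 66, 69 and 87 bp, so the 3 proteins were placed alike in both classes.

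The height of the 3 peaks is part of the rule and is given as a description. The median fold enrichment at the summit, over the local background and as the authors' peak caller gave it, was 4.35 for CHD4 (3.68 to 5.15), 5.21 for HDAC2 (4.39 to 6.33) and 6.30 for MTA2 (5.23 to 7.58), with quartiles in brackets. At sites with all 4 the medians were 5.00, 5.83 and 6.997, or 1.15, 1.12 and 1.11 times as high. MTA2 had the highest fold of the 3 at 603 members (64.5%), HDAC2 at 270 and CHD4 at 62, and the share led by MTA2 was 64.7% at sites with all 4. Across the 935 members the heights of CHD4 and HDAC2 went together (Spearman correlation 0.41) more than those of HDAC2 and MTA2 (0.20) or CHD4 and MTA2 (0.17). With all 4 subunits the same values were 0.49, 0.33 and 0.34, across sites that share their libraries.

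**Figure D1:**
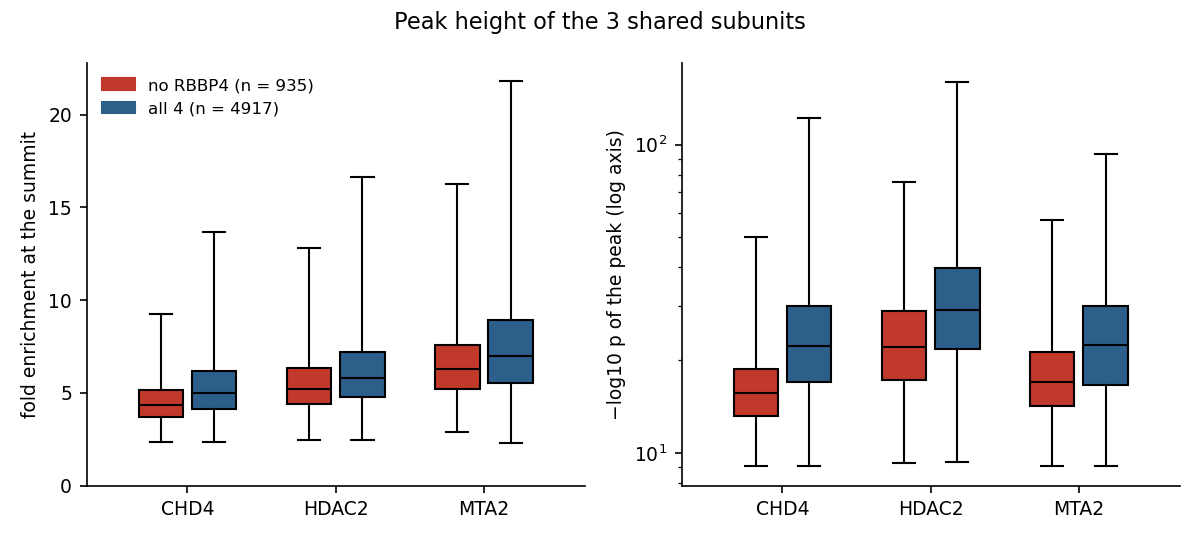
Fold enrichment (left, linear axis) and −log10 p (right, log axis) of the highest CHD4, HDAC2 and MTA2 peak per site, for sites without RBBP4 (red) and with all 4 subunits (blue). Boxes give the quartiles, the line the median and the whiskers the lowest and highest site; the medians without RBBP4 are lower for each subunit and the boxes overlap.

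The share lacking RBBP4 was lower among strong and wide sites, which is again a description of the peaks that define the members. When the 5852 sites with CHD4, HDAC2 and MTA2 were ranked by the lowest −log10 p of these 3 peaks, RBBP4 was missing at 30.2% of the weakest quartile, 22.7% of the second, 9.64% of the next and 1.30%, or 19 of 1463 sites, of the strongest. By width the share went from 29.8% of the narrowest quartile to 4.72% of the widest. The width includes the RBBP4 peak where there is one, so the fall with width is partly built in. Weak and narrow sites missed by the RBBP4 list for lack of depth cannot be told apart from sites without RBBP4. The RBBP4 list reached down to a −log10 p of 7.01, further than the CHD4 list (9.003), the HDAC2 list (9.01) or the MTA2 list (9.08). As the read depth behind each list is unknown, these limits do not show how sensitive the lists were. At 111 (2.26%) of the 4917 sites with all 4, the RBBP4 peak of highest fold had a −log10 p under 9. With the threshold of that list raised to 9, 1043 sites fitted the rule.

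**Figure D2:**
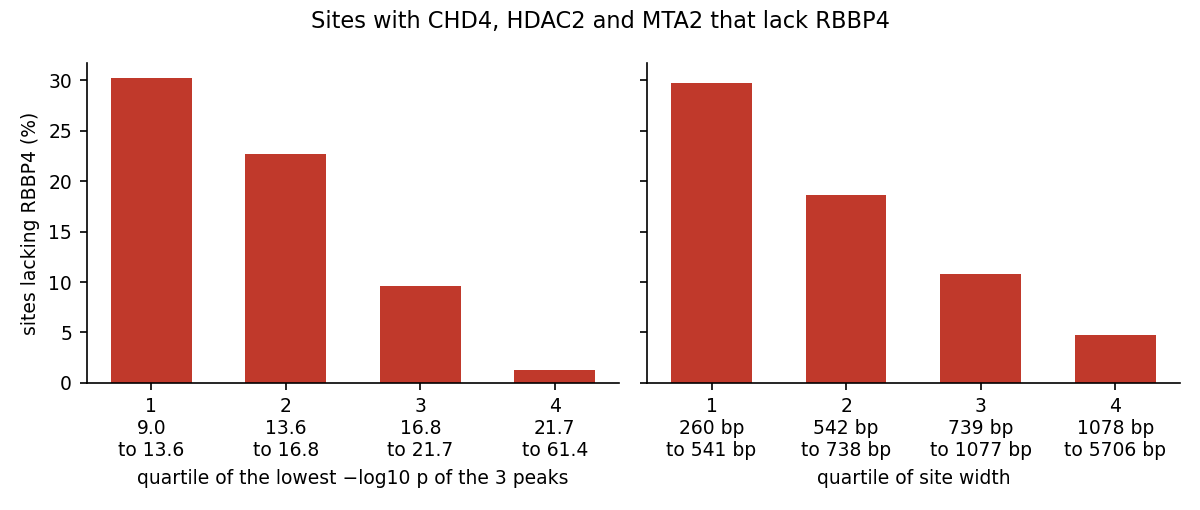
Share of sites with CHD4, HDAC2 and MTA2 that lack RBBP4 (y axis, %) by quartile of the lowest −log10 p of the 3 peaks (left) and of the width of the merged site (right), with the range of each quartile under its bar. The share goes from 30.2% to 1.30% with strength and from 29.8% to 4.72% with width, which includes any RBBP4 peak.

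At the border of the rule, the member with the nearest RBBP4 peak lay 2.26 kb from CITED2 (chr6:139368798-139369550), 38 bp from that peak and 0.018 kb from a site with all 4 subunits, with folds of 4.54 for CHD4, 4.00 for HDAC2 and 3.90 for MTA2. The next, near PWWP3A on chromosome 19, was 97 bp away. The weakest member by −log10 p lay near ATP2A3, at 9.04. Just outside the rule, a site near ID3 (chr1:23561569-23562560) held all 4 subunits with an RBBP4 peak of −log10 p 7.09 and a fold of 2.54. Most members were not of this kind. An RBBP4 peak lay within 0.5 kb of 32 members (3.42%) and within 10 kb of 283 (30.3%), and the median distance was 31.4 kb. The nearest site with all 4 subunits was a median of 65.8 kb away.

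Marks on the members were those of enhancers more than of promoters. H3K27ac overlapped 507 members (54.2%, 51.0 to 57.4), H3K4me1 484 (51.8%, 48.6 to 55.0) and H3K4me3 197 (21.1%, 18.6 to 23.8). Over all merged sites the same shares were 45.2%, 27.9% and 41.6%. No member overlapped H3K27me3, and 0 of 935 allows a share of up to 0.321% by a limit of 3 counts and up to 0.409% by the Wilson interval. The share of all merged sites, 0.379%, lies between these limits, so a difference was not detectable with this number of sites. A protein-coding gene had one of its ends within 1 kb of 165 members (17.6%, 15.3 to 20.2), against 33.4% of all merged sites. For start sites listed by RefSeq the count was 133 (14.2%), against 30.1%. The midpoint of 466 members (49.8%) was inside a protein-coding gene, against 55.6% of all merged sites.

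Beside the sites with all 4 subunits, the members held H3K4me1 about as often over the whole site and the other active marks less often. H3K4me1 differed by -1.66 points (-5.15 to 1.82), an interval that includes 0. Counted in the 500 bp around the mean summit alone, it was at 49.7% of members and 36.99% of sites with all 4, a difference of 12.7 points (9.26 to 16.2). That window leaves out more of the flanks of the wider sites with all 4. H3K27ac was less frequent than the 62.8% of sites with all 4 (difference -8.54, -12.0 to -5.09) and H3K4me3 less frequent than their 29.96% (-8.89, -11.7 to -5.88). Gene ends differed little from their 20.5% (-2.85, -5.43 to -0.0516). Of these differences, those of H3K4me3 and of gene ends turned when each list was limited to a −log10 p of 15 or more (2.15, -0.854 to 5.27, and 3.56, 0.867 to 6.40), while that of H3K27ac became -1.67 (-5.20 to 1.81) and that of H3K4me1 -12.1 (-15.6 to -8.51). That setting compares largely other sites, since of its 1039 sites without RBBP4 only 320 overlapped a member.

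The 3 other classes that lack 1 subunit looked different. Sites without CHD4 overlapped H3K4me3 in 72.7% (70.2 to 75.1) and H3K4me1 in 13.9%, and sites without MTA2 in 51.3% and 17.1%. Members were below both for H3K4me3 (differences of -51.6 points, -55.1 to -47.9, and -30.2 points, -34.0 to -26.3) and above both for H3K4me1, by 37.8 (34.0 to 41.5) and 34.7 (30.7 to 38.4) points. The class without HDAC2 was the nearest for H3K4me1, H3K4me3 and gene ends, though not for H3K27ac or FLI1, with H3K4me1 at 53.4% (difference -1.67, -6.55 to 3.22), but with H3K4me3 at 7.74% and H3K27ac at 42.98%, so members had 13.3 points more H3K4me3 (9.99 to 16.6) and 11.2 points more H3K27ac (6.35 to 16.1). Near gene ends lay 5.59% of the sites without HDAC2, 33.4% of those without MTA2 and 61.7% of those without CHD4.

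**Figure D3:**
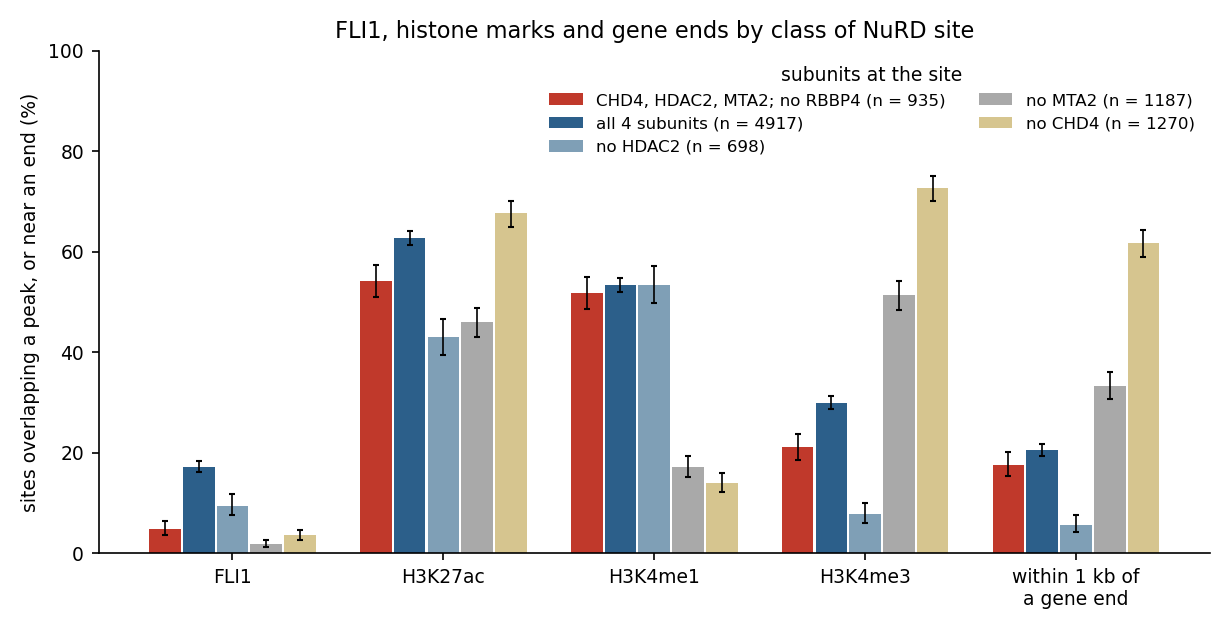
Share of sites (y axis, %) that overlap a FLI1, H3K27ac, H3K4me1 or H3K4me3 peak by at least 1 bp or lie within 1 kb of a gene end, for members (red), sites with all 4 subunits (dark blue) and the 3 classes that lack HDAC2, MTA2 or CHD4, with 95% Wilson intervals. The red bars follow the dark blue ones for H3K4me1 and gene ends and are lower for FLI1 (4.81% against 17.2%).

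By combination of marks, 267 members (28.6%) held H3K27ac with H3K4me1, 192 (20.5%) H3K4me1 alone, 120 (12.8%) H3K27ac with H3K4me3, 97 (10.4%) H3K27ac alone, 52 (5.56%) H3K4me3 alone and 23 (2.46%) the 3 active marks together. No mark was found at 182 members (19.5%, 17.1 to 22.1), against 12.8% of sites with all 4, a difference of 6.71 points (4.12 to 9.52). Combinations were not compared at like width, and the narrower members offer less sequence for a mark to overlap. The acetylated promoter pattern of H3K27ac with H3K4me3 was less frequent than the 21.4% of sites with all 4 (difference -8.60, -10.9 to -6.04). H3K4me3 alone was more frequent than their 3.95%, by 1.62 points (0.196 to 3.35). H3K27ac with H3K4me1 (-0.242, -3.32 to 2.99) and H3K4me1 alone (0.462, -2.26 to 3.38) differed by less than their intervals. Members without a mark were narrow, with a median of 455.5 bp, and their median CHD4 fold of 4.67 was above the 3.65 of members with H3K27ac and H3K4me3.

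At gene ends, H3K27ac differed most between members and sites with all 4. The shares by location were not split by width or strength, and members as a whole were narrower. Of the 165 members there, 108 (65.5%, 57.9 to 72.3) overlapped H3K27ac, against 83.9% (81.5 to 86.1) of the 1008 sites with all 4 (difference -18.5, -26.3 to -11.2). H3K4me3 was at 81.2% and 88.0% (difference -6.78, -13.7 to -1.13). Away from gene ends the H3K27ac shares were 51.8% and 57.3% (-5.49, -9.34 to -1.64), and those of H3K4me1 59.1% and 63.7% (-4.61, -8.42 to -0.866). Where H3K27ac was present its peak had a median fold of 8.26 at members and 9.75 at sites with all 4, while H3K4me1 peaks (6.70 and 6.81) and H3K4me3 peaks (17.1 at both) were of like height.

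The position of H3K4me1 differed within the sites. At sites with all 4 the mean summit of CHD4, HDAC2 and MTA2 lay inside an H3K4me1 peak in 6.63% (5.97 to 7.36), and at members in 14.4% (12.3 to 16.8), a difference of 7.81 points (5.58 to 10.3). The greatest flanking coverage was alike: it stood 500 bp from the mean summit at members, at 46.1% averaged over both sides, and 600 bp away at sites with all 4, at 43.8%. At 300 bp on either side coverage was 40.9% and 39.0% at members, against 31.0% and 29.9% at sites with all 4. At 1000 bp it was lower at members, with 23.6% and 26.6% against 30.5% and 31.5%. The dip of H3K4me1 under the NuRD summits was thus shallower and the flanks closer at members. For H3K27ac the mean summit was covered at 29.9% of members and 35.6% of sites with all 4, and for H3K4me3 at 13.0% and 21.4%. The H3K4me1 difference at the summit was above 0 in each quartile of width (6.39, 6.86, 9.61 and 5.92 points from narrowest to widest) and of strength (7.05, 7.37, 8.77 and 14.7 points), with every interval above 0. With each list limited to a −log10 p of 15 it was 2.97 points (1.10 to 5.05). It was examined after the data had been seen.

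**Figure D4:**
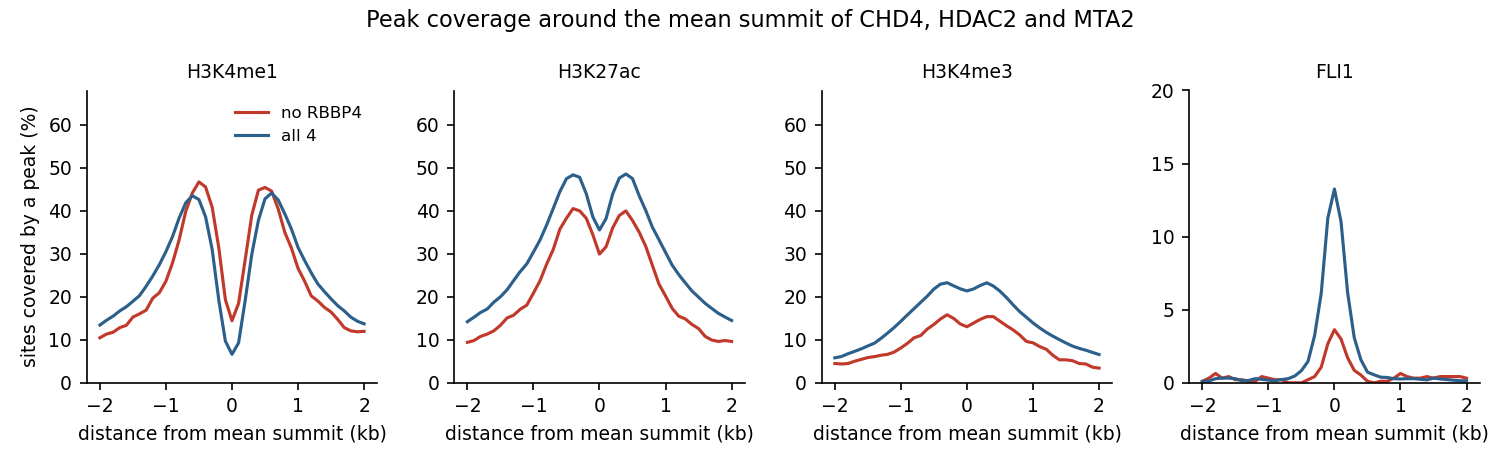
Share of sites covered by an H3K4me1, H3K27ac, H3K4me3 or FLI1 peak (y axis, %; the FLI1 panel has its own scale) against distance from the mean summit of CHD4, HDAC2 and MTA2 (x axis, kb), for members (red) and sites with all 4 subunits (blue). H3K4me1 dips to 14.4% at members and 6.63% at sites with all 4, with flanks that reach 46.1% and 43.8%.

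Within quartiles of the lowest −log10 p, H3K4me3 was less frequent at members in the weakest (difference -21.7, -26.5 to -16.6), the second (-13.7, -18.7 to -8.16) and the next (-14.9, -20.1 to -8.00), while the strongest, with 19 members, gave -11.4 (-16.1 to 8.10). H3K4me1 by any overlap was more frequent at members in the weakest (12.2, 6.80 to 17.7) and second quartile (12.2, 6.02 to 18.2) and not in the upper ones (-0.969 and -4.71, intervals including 0). So at like low strength the sites without RBBP4 held H3K4me1 more often and H3K4me3 less often. H3K27ac was not more frequent at members by strength. From weakest to strongest it differed by -8.05 (-13.5 to -2.55), -1.04 (-7.15 to 4.94), -7.57 (-16.2 to 0.845) and -21.0 (-41.2 to 0.0827). By width, H3K4me3 went from -4.78 points (-8.17 to -0.993) in the narrowest quartile to 16.7 (4.60 to 27.3) in the widest. From narrowest to widest, H3K27ac differed by 5.86 (0.495 to 11.3), 6.69 (0.121 to 13.1), 6.59 (-1.17 to 13.3) and -5.10 (-15.6 to 1.92). At like width, members thus held H3K27ac more often in the narrowest and second quartiles, and the other intervals included 0. The width of sites with all 4 includes the RBBP4 peak. In the 500 bp around the mean summit, without a split by width, H3K27ac was less frequent at members. It was at 51.6% of members and 59.9% of sites with all 4 (difference -8.30, -11.8 to -4.83).

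**Figure D5:**
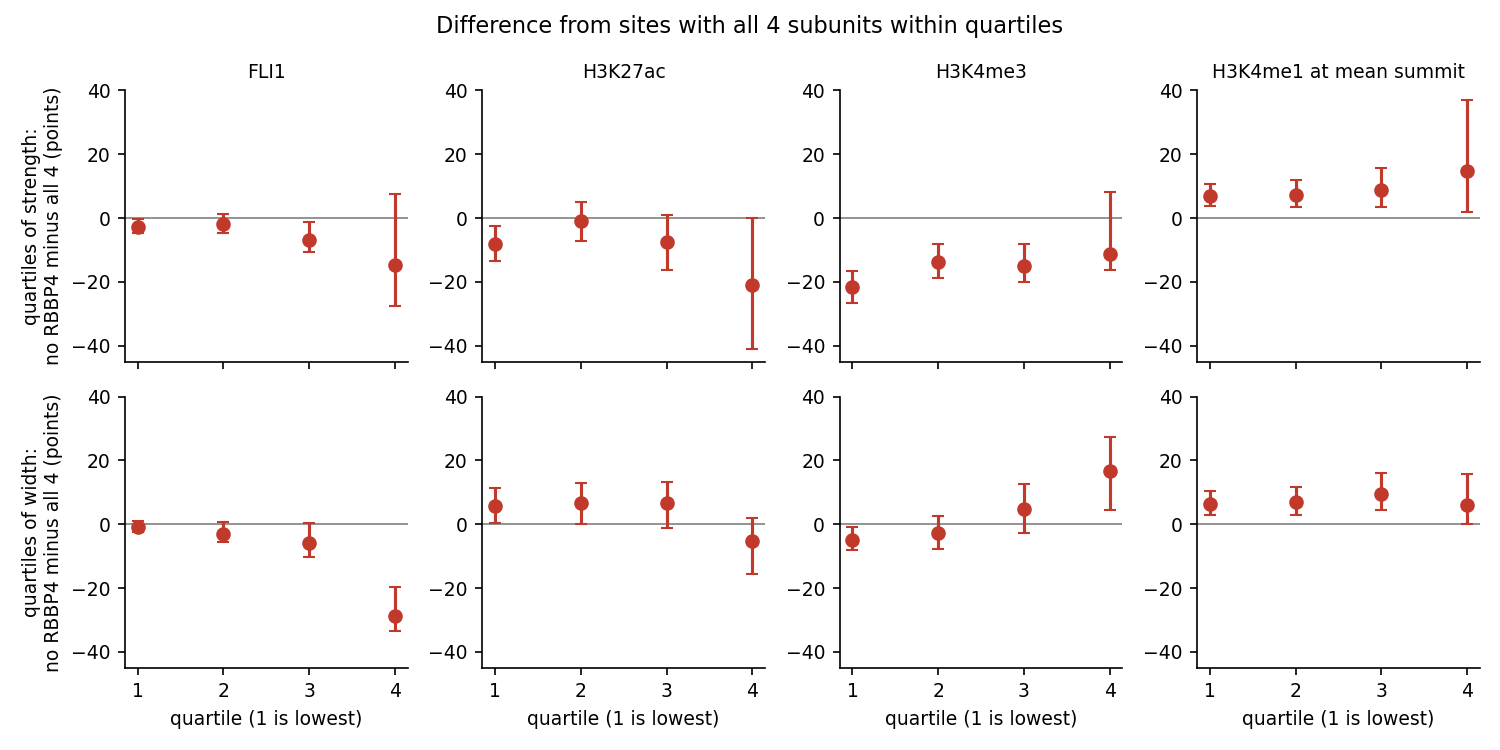
Members minus sites with all 4 subunits (y axis, percentage points, with 95% Newcombe intervals) for FLI1, H3K27ac, H3K4me3 and H3K4me1 at the mean summit, within quartiles of the lowest −log10 p (top) and of site width (bottom). H3K4me1 at the summit is above 0 in all 8 quartiles, and H3K4me3 is below 0 in all 4 quartiles of strength but changes sign with width.

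FLI1 peaks were uncommon at members. They overlapped 45 (4.81%, 3.62 to 6.38), against 17.2% (16.2 to 18.3) of sites with all 4 (difference -12.4, -14.0 to -10.5) and 4.51% of all merged sites, so members were near the background. The other classes that lack 1 subunit were low as well, with FLI1 at 1.77% of the sites without MTA2, 3.54% without CHD4 and 9.46% without HDAC2. Members were above the class without MTA2 by 3.04 points (1.53 to 4.72), below that without HDAC2 (-4.64, -7.32 to -2.14), and the difference from that without CHD4 had an interval that includes 0 (1.27, -0.401 to 3.07). Within quartiles of width the difference was -0.789 (-2.26 to 1.14), -2.99 (-5.65 to 0.608), -5.72 (-10.3 to 0.488) and -28.6 (-33.5 to -19.7) from narrowest to widest, so it lay chiefly at wide sites. Within quartiles of strength it was -2.73 (-4.66 to -0.436), -1.99 (-4.67 to 1.42), -6.98 (-10.7 to -1.23) and, over 19 members, -14.8 (-27.6 to 7.59). Away from gene ends FLI1 overlapped 5.71% of members and 20.7% of sites with all 4 (-15.0, -17.0 to -12.8). At members with FLI1, H3K27ac was present in 37 of 45 (82.2%, 68.7 to 90.7), against 52.8% of those without, H3K4me1 in 46.7% against 52.0%, and H3K4me3 in 0 of 45 against 22.1%. These sites were a median of 739 bp wide, with median folds of 5.08 for CHD4, 6.09 for HDAC2 and 7.16 for MTA2, against 4.32, 5.17 and 6.29 at members without FLI1.

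The member with the strongest FLI1 peak lay 11.3 kb from BEST3, a bestrophin chloride channel gene (chr12:69631671-69632186), with a FLI1 fold of 20.1 and folds of 5.63, 6.12 and 5.50 for CHD4, HDAC2 and MTA2. Next came a site 169 kb from PCDH20, a protocadherin gene, with a FLI1 fold of 15.1 and an H3K27ac fold of 16.02. A site inside EZH2, the catalytic subunit of Polycomb repressive complex 2 and a known target of the fusion (chr7:148838695-148839433), had 14.2 for FLI1, 9.71 for HDAC2, 3.91 for CHD4 and 6.01 for MTA2, with H3K27ac at 7.77 and no H3K4me1 or H3K4me3. The other 5 were near SERPINE2, a protease inhibitor gene (FLI1 fold 13.4), inside KALRN (13.1), inside SLC10A7 (15.6), near LRIG3 (11.0) and near RBMX, an RNA-binding protein gene (13.3). The ends of SERPINE2, LRIG3 and RBMX were 97.8, 263 and 33.0 kb away. All 8 of these sites overlapped H3K27ac and none overlapped H3K4me3. The nearest RBBP4 peak was between 1.17 kb (KALRN) and 143 kb (PCDH20) away.

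The members of highest mean rank over the 3 subunits were mostly far from promoters. First was a site 9.92 kb from CHD6, itself a CHD-family remodeller (chr20:41391626-41392167), with folds of 7.11 for CHD4, 10.0 for HDAC2 and 9.21 for MTA2 and an H3K4me1 peak as its only mark. The sites whose nearest genes were PLSCR5 (6.13, 8.67 and 11.9), C4orf54 (6.34, 8.88 and 9.49) and RNF144B, an E3 ubiquitin ligase gene (7.20, 7.40 and 9.54), also had H3K4me1 alone. The ends of these genes were 198, 75.4 and 160 kb away. Sites whose nearest genes were CDH7, a cadherin gene, RHPN2, SMARCC1, a core SWI/SNF subunit, and CENPC, a centromere protein gene, and one inside NREP had no mark. The ends of CDH7, RHPN2, SMARCC1 and CENPC were 739, 4.625, 9.60 and 15.9 kb away. The site by SMARCC1 had a FLI1 peak of fold 5.33, and that by CENPC had the highest CHD4 fold of all members, 9.23. A site inside C9orf85 and one 168 kb from IRX3, a homeobox factor gene, with an RBBP4 peak 0.197 kb off, had H3K27ac with H3K4me1. The remaining one, inside KIFC3, a minus-end kinesin gene (chr16:57846030-57847700), was 1671 bp wide with H3K27ac at 9.56 and FLI1 at 8.38. Of these 12 members, 5 had no mark, 4 had H3K4me1 alone and 3 had H3K27ac.

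At some members of high rank by fold no RBBP4 peak was found over long distances. By the lowest −log10 p of the 3 peaks, the 6 sites named here ran from 12.6 (LOC124903401) to 21.5 (KIF16B). None was in the strongest quartile by that measure, which began at 21.7. Among the 100 of highest rank, the 6 farthest from RBBP4 were inside DOCK1, an exchange factor gene for RAC (1039 kb from the nearest RBBP4 peak), near CDH7 (845 kb), near LOC124903401 (692 kb), at MAP4K4 (583 kb), near KIF16B, a kinesin gene (559 kb), and near PRKCQ, a protein kinase C gene (499 kb). Of these, MAP4K4 had H3K4me3 with a fold of 22.1 and no H3K27ac, KIF16B had H3K27ac, and the other 4 had no mark. The site nearest to PRKCQ lay 158 kb from that gene and had folds of 7.69 for CHD4, 10.8 for HDAC2 and 7.22 for MTA2. The ends of CDH7, LOC124903401 and KIF16B were 739, 493 and 34.2 kb from their sites. The site at MAP4K4, whose promoter sequence is given above, lay 0.016 kb from the gene and had 6.35, 8.99 and 7.69.

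The other highest-ranked members at gene ends with H3K4me3 all carried H3K27ac. At NMI the folds were 5.83 for CHD4, 6.14 for HDAC2 and 8.32 for MTA2, and the mean summit lay 4 bp from the listed start. At SAMD1 they were 4.66, 8.74 and 8.44 over a site of 1602 bp. At BCL3 they were 6.70, 5.25 and 9.44, and an RBBP4 peak lay only 0.233 kb off. At LCOR they were 4.38, 6.73 and 13.2, and at CLK3 and its antisense partner CLK3-AS1, where CLK3 is a kinase of splicing factors, 4.31, 7.32 and 8.21. H3K4me3 folds over these 5 ran from 11.6 at NMI to 21.5 at LCOR.

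Members of lower rank by fold were nearer to promoters. In the lowest of 3 near-equal groups by mean rank, 31.1% (26.2 to 36.4) overlapped H3K4me3 and 27.9% lay at gene ends, against 9.32% (6.57 to 13.1) and 9.003% in the highest. H3K27ac went from 47.9% in the highest group to 61.5% in the lowest, FLI1 from 9.65% (6.84 to 13.4) to 1.92% (0.884 to 4.13), and H3K4me1 stayed between 50.5% and 52.6%. By quartile of the lowest −log10 p, from weakest to strongest, H3K27ac was at 51.6%, 58.1%, 54.6% and 47.4% of members. H3K4me1 was at 47.3%, 56.3%, 53.2% and 68.4%, the last over 19 members. H3K4me3 (23.9% in the weakest, 5.26% in the strongest), gene ends (19.4% and 5.26%) and FLI1 (2.68% and 21.1%) ran as by rank. Members closer to an RBBP4 peak were more often acetylated. H3K27ac overlapped 81.3% of the 32 members within 0.5 kb of one, 75% of the 84 between 0.5 and 2 kb, 63.5% of the 167 between 2 and 10 kb, 48.3% of the 449 between 10 and 100 kb and 46.8% of the 203 beyond. H3K4me1 was at 62.5%, 71.4%, 65.9%, 46.5% and 41.9% over the same groups.

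The share of sites lacking RBBP4 varied over chromosomes. It was lowest on chromosome 21, at 5 of 94 sites (5.32%, 2.29 to 11.9), and highest on chromosome 19, at 43 of 149 (28.9%, 22.2 to 36.6), and chromosome 16, at 38 of 135 (28.1%, 21.2 to 36.3), followed by chromosome 22 at 23.1%. Chromosomes 16, 19 and 22, picked after these values were seen, came to 26.8% (22.8 to 31.3) against 15.2% (14.2 to 16.1) of the others. On chromosome 19, 42.3% of the sites overlapped H3K4me3 and the median lowest −log10 p was 16.4. The same values were 33.3% and 16.1 on chromosome 16, 30.8% and 15.7 on chromosome 22, and 40.4% and 17.2 on chromosome 21. Sites on the chromosomes with high shares were thus weaker by this median than those on chromosome 21, but other chromosomes varied. The median was 15.4 on chromosome 14 (share 13.1%), 18.1 on chromosome 20 (20.3%) and 18.5 on chromosome 8 (14.2%). The part of strength in these shares was not tested.

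Members were spread thinly over genes. They had 800 different nearest protein-coding genes, of which 697 were nearest to 1 member and 25 to 3 or more. Only 64 members (6.84%) lay within 10 kb of another. CITED2, a CBP and p300 binding coactivator gene, had the most, with 5 members between 2.26 and 732 kb from its end. DIP2B, GSE1, KIFC3, LRATD2 and MYC had 4 each, and these 6 genes were picked after the counts were seen. The 4 sites of KIFC3 had CHD4 folds of 4.43 to 8.01, and FLI1 overlapped 2 of them.

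A member lay within 100 kb of 11.6% of all protein-coding genes, the background for the 9 gene lists, and a site with all 4 subunits within 100 kb of 37.9%. Longer genes are reached more easily, and the lists differ in gene length. Of 40 genes activated by EWSR1::FLI1, 11 (27.5%, 16.1 to 42.8) had a member nearby and 33 a site with all 4. Of 29 genes repressed by it the counts were 8 (27.6%, 14.7 to 45.7) and 18. Ewing core factors had 4 of 8 (50%, 21.5 to 78.5), with a median gene length of 128 kb against 24.1 kb for all genes. Housekeeping genes had 5 of 20 (25%), DNA damage and cell cycle genes 5 of 25 (20%), developmental regulators 5 of 30 (16.7%), NuRD subunits 2 of 15 (13.3%), mesenchymal genes 2 of 20 (10%) and neural crest and neuronal genes 1 of 30 (3.33%, 0.591 to 16.7). The interval lay above 11.6% for the activated and repressed genes and the core factors only.

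Among activated genes, members lay inside ALK, a receptor tyrosine kinase, EZH2, IL1RAP, an interleukin 1 receptor subunit, and SOX6, a transcription factor also counted among the core factors, and 8.51 kb from PRKCB, a protein kinase C. The site in ALK (chr2:29322007-29322505) had the highest MTA2 fold of all members, 16.3, beside 3.598 for CHD4 and 4.09 for HDAC2, with H3K27ac as its only mark. That in SOX6 had 9.86 for MTA2, 3.93 for CHD4 and 5.40 for HDAC2, with H3K4me1. Among repressed genes, members lay inside ACTA2, COL1A1, COL3A1 and TPM1, genes of contractile and matrix proteins, and 41.2 kb from LGALS1, a galectin gene. The site in TPM1 had 9.34 for MTA2 and H3K4me1, and that in COL1A1 had 4.29 and no mark. Of the core factors, MEIS1, RREB1 and SOX6 held a member and KLF15 had one 86.3 kb away.

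In the other lists, CHEK2, a checkpoint kinase, held a member with H3K4me1, followed by members 21.0 kb from MCM5, 53.4 kb from CDK4, 73.1 kb from PCNA and 95.4 kb from XRCC5. Developmental regulators with a member were EYA1 and FOXP1, both within the gene, ZEB1 (73.5 kb), FOXC1 (82.4 kb) and IRX5 (82.9 kb). The site in FOXP1 had an MTA2 fold of 10.7 against 4.10 for CHD4. Housekeeping genes were YWHAZ, which held one, EEF1A1 (0.023 kb), GAPDH (33.6 kb), PPIA (47.8 kb) and TFRC (86.8 kb). The site by EEF1A1, a translation elongation factor, ranked 933 of 935, with folds of 2.56, 3.15 and 3.96. ENG (29.8 kb) and ACAN (37.6 kb) were the mesenchymal genes and TFAP2B (42.0 kb) the neural crest gene. MBD3 (60.3 kb) and CHD4 (69.2 kb), both genes of NuRD, had a member too, and the one near CHD4 was the same site as that near GAPDH.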

How the data were processed

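ChIP-seq peak lists of 9 samples of SK-N-MC cells were used, 1 per target, grouped by the target in their labels; the 2 input libraries were not analysed here. BWA 0.7.17, bedtools 2.27.1, FastQC 0.11.7, deepTools 3.2.1, Trimmomatic 0.36, SAMtools 1.9 and GRCh38 are named in the submitters' processing notes. The deposited peak names carry MACS2, with its version, control and any pooling not given in the sources used here. Each peak has a fold enrichment over the local background (a ratio), a −log10 p and −log10 q and a score, all deposited by the authors; the score and −log10 q were not used. In the MTA2 list 82 peak numbers are missing, and in the CHD4, HDAC2 and RBBP4 lists 0.

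Peaks (1-based, GRCh38) of the 4 subunits sharing at least 1 bp were merged, and the highest peak per subunit stood for a site. Marks, FLI1 and promoter windows had to share 1 bp with the site. Quartiles were set on members and sites with all 4 together. Genes came from RefSeq (GRCh38.p14): 20052 protein-coding genes by their annotated ends. Start sites were listed for 15842 of them, so gene ends were the main measure, although start sites had been planned where strand was given, and listed starts were an added alternative. The nearest gene is the one with the nearest end, and all 217 entries of the 9 gene lists, written from literature and textbook knowledge, matched by symbol.

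The members and lists were chosen with earlier results of these data known. No test between groups was made, since each target has 1 list. Sites named were, by rule, the 12 highest by mean rank over the 3 folds, the 8 of strongest FLI1 peak by −log10 p, the 6 highest-ranked at gene ends with H3K4me3, the 6 farthest from RBBP4 among the 100 of highest rank, and up to 5 genes per list; others were named after their values were seen. Merging and overlap code was tested on simulated data, and 3000 of 3000 planted sites were recovered with their class. Python 3.11.15, pandas 2.3.3 and numpy 2.4.6 were used. Alternatives were lists limited to a −log10 p of 15 or more, RBBP4 peaks of at least 9, summits within 250 bp, no RBBP4 peak within 500 bp, no chromosome 8, 500 bp around the mean summit, the mean summit inside the feature, and 5 kb at gene ends.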

Additional observations from a re-analysis of the deposited data

How the results depend on the processing

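Of 53 values under an alternative, 44 stayed within the interval of the main value (for the number of members, within 1.5 times it), 7 moved outside it, and 2 whose main interval left out 0 changed sign, both with each list limited to a −log10 p of 15. In that setting the difference between members and sites with all 4 subunits was 2.15 points for H3K4me3, 3.56 for gene ends, -1.67 for H3K27ac and -12.1 for H3K4me1, and 2.97 for H3K4me1 at the mean summit. Of its 1039 sites without RBBP4, 320 overlapped a member (30.8% of these sites, 34.2% of members). With the 500 bp around the mean summit in place of the whole site the H3K4me1 difference turned to 12.7 points, and with the mean summit inside the mark to 7.81. The gene end difference stayed below 0 otherwise, but its interval included 0 with RBBP4 peaks of at least 9, without chromosome 8, in the 500 bp window and with 5 kb. The FLI1 difference was -10.3 points with summits within 250 bp and -9.62 with the mean summit inside a FLI1 peak, and kept its sign in all 7 alternatives, with intervals below 0. The number of members ranged from 751 to 1043 over 5 alternatives. Listed start sites in place of gene ends, and H3K4me1 at the mean summit as a result of its own, were chosen after seeing the data. No paired analysis was possible because each target has 1 list and the 2 numbered inputs have none here. The lists hold no read counts, so a member that lacks an RBBP4 peak at this depth may still be bound by RBBP4.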
